A study of Mus musculus with 12 samples.

Results

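NF-kB is a family of dimeric transcription factors, and the 10 genes described here are its 5 subunits (Nfkb1, Nfkb2, Rel, Rela and Relb), the inhibitors Nfkbia and Nfkbie, the feedback enzyme Tnfaip3, and the TRAF-linked genes Traf3 and Tank. They were taken by symbol from the count files, which list 12212 symbols, and all 10 were listed and passed the low-count filter that left 12081 symbols for testing. The libraries were made from splenic germinal center B cells of the NZBWF1/J strain, a hybrid prone to lupus-like autoimmunity, and the study asked how short costimulation blockade altered B and T cell subsets. B cells were enriched by negative selection and sorted by germinal center zone, and SMART-Seq v4 cDNA from 1000 cells made each library. Each zone had 3 libraries from control and 3 from treated mice, hence 4 groups. Treatment consisted of 6 doses each of 200 ug CTLA4-Ig, which blocks CD28 ligands, and 250 ug anti-CD40L over 2 weeks from 18 weeks of age. Controls were untreated, with no sham injection or age given in the labels. Every mouse was of the same strain, so no group was free of the autoimmune background, and the agents were always given together.

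In resting cells the NF-kB dimers are held in the cytoplasm by IkB proteins such as the product of Nfkbia. Receptors including CD40 activate them by a canonical route, in which IkB kinase marks IkB for destruction and frees Rela and Rel dimers, and a noncanonical route, in which loss of TRAF3 lets the Nfkb2 product be processed and pair with RelB. Nfkbia, Nfkbie, Tnfaip3, Nfkb2, Rel and Relb are themselves textbook targets of the pathway, and in germinal centers light zone B cells receive the CD40 signal from T follicular helper cells.

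Because these genes are described as feedback targets, the sequence at their start sites was searched for the kB consensus, the ungapped NF-kB binding motif of 10 bases, on both strands. RefSeq windows (build GRCm38.p6, 250 bases before to 50 bases after a start) were found for 8 of the genes, and Nfkb1 and Relb had no entry. In 7 of these 8 genes a window held a match, against 9.55% of the 27025 symbols with a window. By window the share was 12 of 14, against 8.46% of 32851 windows, and some windows of Nfkb2 and of Tank share the same match. Rela alone had none. Each match is printed on the gene's strand with the matched bases in capitals, since these are what the inhibitors, a pair of subunits and both TRAF-linked genes have in common; where 2 matches overlap by all but 1 base, as in Rel and the first of Nfkb2, both are capitalised.
Nfkbia: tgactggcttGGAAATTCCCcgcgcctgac
Nfkbie: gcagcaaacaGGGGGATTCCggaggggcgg
Tnfaip3, upstream: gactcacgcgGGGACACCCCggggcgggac
Tnfaip3, near the start: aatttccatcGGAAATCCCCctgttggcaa
Nfkb2, upstream: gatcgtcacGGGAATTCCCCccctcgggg
Nfkb2, near the start: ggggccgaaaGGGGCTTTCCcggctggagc
Nfkb2, internal start, upstream: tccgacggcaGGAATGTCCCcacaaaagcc
Nfkb2, shared by 2 internal windows: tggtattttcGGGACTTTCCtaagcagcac
Rel: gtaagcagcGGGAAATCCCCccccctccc
Traf3: ggcggcccgcGGGGATTTCCagcgcgcgag
Tank, start near the gene's 5′ end: atttctcagtGGAAGTCCCCagttcaacac
Tank, internal start: ctttgtgggcGGGGCTTTCCtgcagaggcg

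Coordinates here are those of the printed stretches, flanks included. The Nfkbia stretch is chr12:55492657-55492686 on the minus strand, and its capital bases begin 29 bases before the start site. The Nfkbie stretch lay at chr17:45555584-45555613, plus strand. The Tnfaip3 stretches lay at chr10:19015516-19015545 and chr10:19015403-19015432, minus strand. For Nfkb2 they lay at chr19:46304689-46304717 and chr19:46304716-46304745, plus strand, inside a window with 3 matches in all, a number reached by 0.186% of windows. The internal Nfkb2 stretches lay at chr19:46305449-46305478 and chr19:46305695-46305724, plus strand. The other stretches were chr11:23771042-23771070, minus strand, for Rel and chr12:111166350-111166379, plus strand, for Traf3. For Tank they were chr2:61578537-61578566 and chr2:61593015-61593044, both plus strand. A match is a run of letters and not a measured binding site. Nfkbia had the highest level of the set per length, and the 250 bases before its start are shown whole, with the match in capitals near the 3′ end (chr12:55492648-55492897, minus strand).
Nfkbia, bases before the start: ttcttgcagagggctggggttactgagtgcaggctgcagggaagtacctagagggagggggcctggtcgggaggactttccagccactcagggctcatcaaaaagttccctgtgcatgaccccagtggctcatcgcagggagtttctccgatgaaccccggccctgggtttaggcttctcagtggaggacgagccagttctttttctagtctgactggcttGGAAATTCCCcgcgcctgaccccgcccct

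The 12 libraries held 16032746 to 26837714 counts. CPM values are counts scaled to library size after TMM, which adjusts library totals for composition, and log2 differences with their standard errors (SE) come from edgeR's quasi-likelihood fit of all 12 libraries. Of the 12, 3 treated libraries stood apart: dark zone treated 1 and 2 and light zone treated 2. They detected 12188 to 12195 symbols against 11384 to 11960 in the other 9, and their TMM factors were 1.35 to 1.44 against 0.81 to 0.99. Their germinal center markers summed to 1510 to 1970 CPM against 3240 to 4480, with Rgs13 at 166 to 254 against 1500 to 2510 CPM. Within that list S1pr2 was higher in them (299 to 328 against 68.5 to 169 CPM), and Mef2b had 458 to 688 against 196 to 580. Their plasma cell markers summed to 1310 to 2410 against 6430 to 11500 CPM. Most of that sum was Jchain, at 1110 to 2150 against 6210 to 11300. Xbp1 (133 to 238 against 28.9 to 225 CPM) and Prdm1 (3.06 to 11.6 against 0.101 to 40) of that list overlapped. So did Sdc1 (1.38 to 5.07 against 0 to 9.76) and Irf4 (6.73 to 26.4 against 0 to 54.7). Their macrophage markers, 9 of 10 listed, summed to 81.5 to 186 CPM against 12.7 to 56.8, with C1qb and C1qc at 0 in 8 libraries. Of the same list Marco was lower in them (3.57 to 4.57 against 4.73 to 11.8 CPM), and Cd68 (8.73 to 19.7 against 0.23 to 36.7), Mpeg1 (4.38 to 10.9 against 0 to 35.5) and Adgre1 (2.46 to 9.59 against 3.92 to 6.88) overlapped. Their T cell markers, 8 of 10 listed, summed to 17 to 58.6 against 6.24 to 64.5. Within that list Cd3e (2.61 to 10.6 against 0.658 to 1.99 CPM) and Cd4 (0.916 to 5.38 against 0 to 0.152) were higher in them. So were Cd8a (0.966 to 2.71 against 0 to 0.16) and Cd8b1 (1.45 to 6.02 against 0 to 0.521). Cd3d, Cd3g, Cd28 and Lat overlapped. B cell markers were present in every library, at 5020 to 9080 CPM in sum. In sorted bulk samples, fewer cells of a type and less RNA per cell cannot be told apart. Libraries of a group are not said to come from separate mice, so p-values measure the spread between libraries, which may be technical. Nor is it said whether both zones were sorted from the same mice, and tests averaged over zones treat all libraries as separate.

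**Figure D1:**
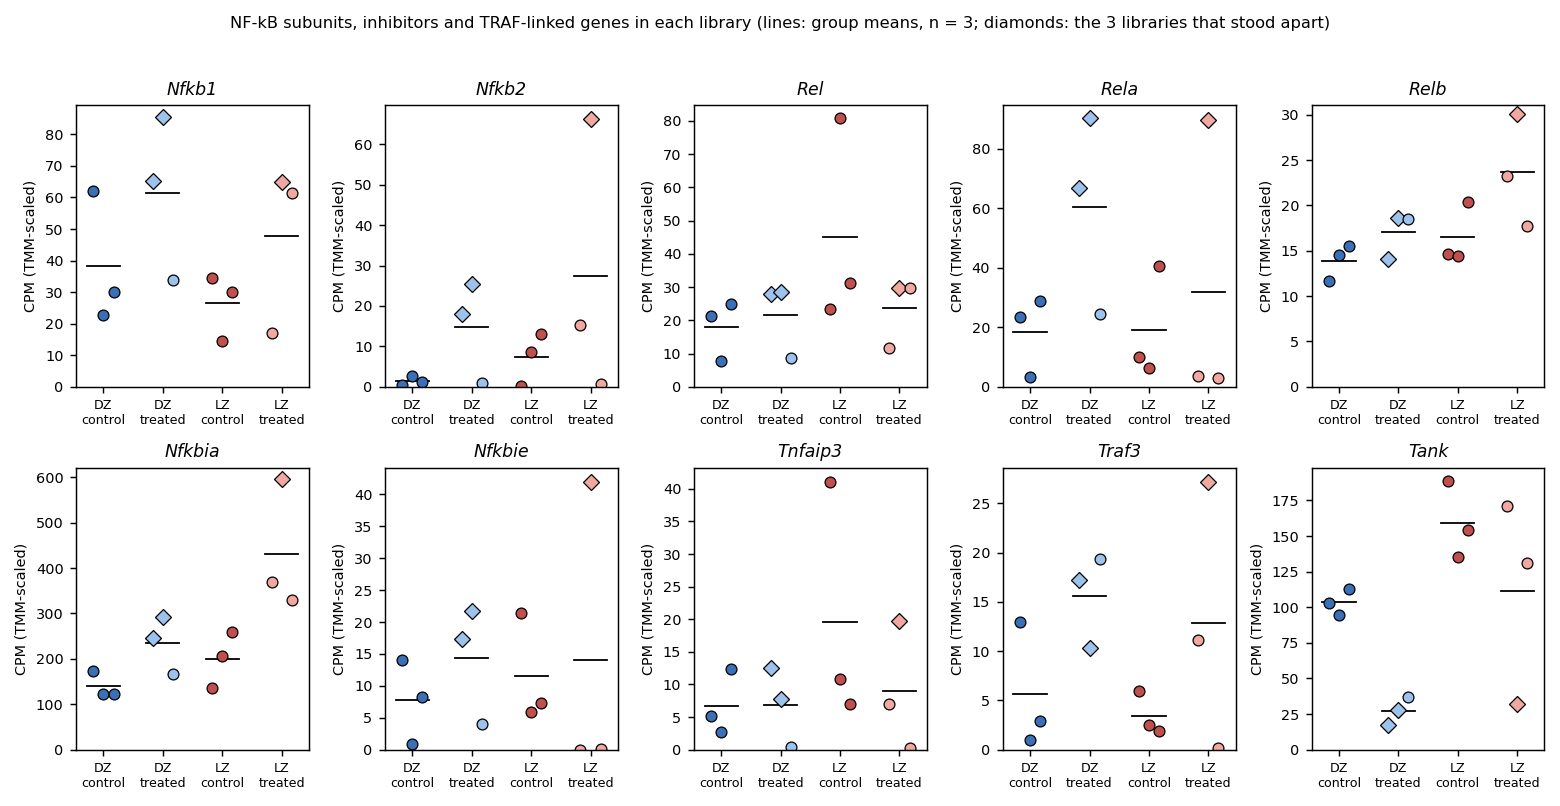
CPM after TMM scaling (vertical axis, linear from 0, a separate scale for each gene) of the 10 genes in the 12 libraries by zone (DZ, dark; LZ, light) and treatment; circles and diamonds are libraries, diamonds the 3 that stood apart, and lines are group means (n = 3). Nfkbia was highest in the 3 light zone treated libraries (329 to 596 CPM), and Tank was lowest in the 3 dark zone treated libraries (17.2 to 36.8 CPM) and in light zone treated 2 (32.3 CPM).

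The clearest patterns were in 2 genes. Nfkbia, the classical IkB inhibitor, was about 1.91-fold higher in treated than control cells on average over zones, and Tank, an adaptor that binds TRAF proteins and dampens TRAF signalling, was 2.33-fold lower. Neither passed the edgeR test adjusted over all genes (adjusted p = 0.223 and 0.231). Both passed with DESeq2 and limma-voom, which called 6.17% and 8.19% of all genes. Without the 3 libraries that stood apart, the edgeR log2 differences went from 0.93 and -1.22 to 0.55 and -0.77. In the light zone alone, that of Tank was then -0.067. With a term for the 3 libraries in place of leaving them out, the averaged edgeR differences were 0.525 for Nfkbia and -0.618 for Tank. Levels of the subunits spread widely within groups, with coefficients of variation of 39.6% to 156%, except Relb (14.3% to 26.4%).

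Per kilobase of exon (GENCODE M21 exon union), the mean level over the 12 libraries was 156 CPM per kb for Nfkbia, whose lowest library (76.3) lay above the highest library of any other member (31.1, for Tank). Tank followed at 16.5, Rela at 10.6, Relb at 4.58, Nfkbie at 3.91, Rel at 3.64, Nfkb1 at 3.61, Nfkb2 at 2.78, Tnfaip3 at 1.47 and Traf3 at 1.27 CPM per kb. From Tank down, the library ranges of neighbours overlapped, so that order is not resolved. With the longest transcript as the length, Nfkb1, whose exon union is 12061 bases, came to 10.5 CPM per kb and ranked 4. Nfkbia ranked first in all 4 groups, while Tank ranked 2 in 3 groups and 5 in dark zone treated cells.

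**Figure D2:**
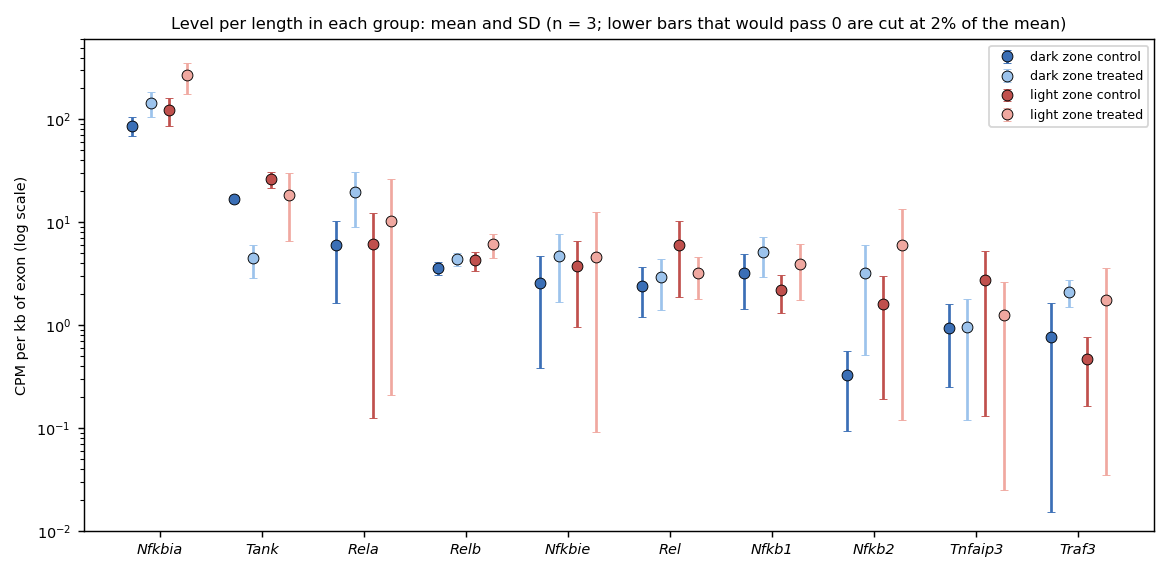
Mean level and SD (n = 3) per kilobase of exon for each gene in each of the 4 groups, in CPM per kb on a log axis; lower bars that would pass 0 are cut at 2% of the mean. Nfkbia lay above the other 9 genes in every group, and the group means of Tank ran from 4.46 (dark zone treated) to 26.2 (light zone control).

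Rela, the transactivating subunit freed by the canonical route (chr19:5637483-5648130, plus strand, mm10), had 23.4, 3.24 and 28.7 CPM in control libraries 1 to 3 of the dark zone, against 66.8, 90.2 and 24.6 CPM in the treated ones. In the light zone it had 10.1, 6.37 and 40.5 CPM in control and 3.63, 89.6 and 2.89 CPM in treated libraries. The 3 libraries that stood apart (66.8 to 90.2 CPM) were above all the other 9, and the other treated libraries (2.89 to 24.6) lay within or near the control range. The averaged treatment difference was 1.23 (SE 0.93) on the log2 scale and turned to -0.41 without light zone treated 2 and to -1.05 without all 3.

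Nfkb1, the p105 and p50 subunit (chr3:135584655-135691547, minus strand), had 62.2, 22.9 and 30 CPM in dark zone control libraries, 65.3, 85.6 and 33.7 in dark zone treated, 34.5, 14.6 and 30.2 in light zone control and 17.1, 64.8 and 61.5 CPM in light zone treated libraries. Groups overlapped in every comparison. Again the same 3 libraries were the highest, at 64.8 to 85.6 CPM. The averaged treatment difference was 0.77 (SE 0.45), and 0.20 without them. In the dark zone it went from 0.68 (SE 0.64) to -0.17, with dark zone treated 3 the only treated library left.

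Nfkb2, the p100 and p52 subunit of the noncanonical route (chr19:46304320-46312385, plus strand), was scarce in dark zone control, at 0.548, 2.63 and 1.27 CPM, and reached 18.1, 25.4 and 1 CPM in dark zone treated libraries. Light zone control libraries held 0.327, 8.61 and 13.0 CPM, and light zone treated libraries 15.3, 66.3 and 0.671 CPM. The spread within groups was wide, and library 3 of each treated group lay within the control range. The averaged treatment difference of 2.61 (SE 1.16, unadjusted p = 0.0462, edgeR adjusted p = 0.294) became -0.20 without the 3 libraries. Exons of Nfkb2 share 299 bases (6.52%) with Psd and 531 bases (11.6%) with a noncoding gene, and the library kit is not described as keeping strand, so reads there cannot be assigned to 1 gene.

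Relb, the partner of p52 (chr7:19606217-19629438, minus strand), had the smallest spread of the subunits. It measured 11.7, 14.5 and 15.5 CPM in dark zone control libraries, 14.1, 18.6 and 18.5 in dark zone treated, 14.7, 14.4 and 20.4 in light zone control and 23.3, 30.1 and 17.7 CPM in light zone treated libraries. The treated means were the higher ones in both zones (17 against 13.9 and 23.7 against 16.5 CPM), yet groups overlapped. The averaged difference was 0.41 (SE 0.36, edgeR adjusted p = 0.551) and 0.38 without the 3 libraries. In the exact two-sided permutation of library labels within zones (400 arrangements, smallest possible p = 0.005), p was 0.03, and 0.209 adjusted over all 12081 genes. The permutation exchanged labels in each zone separately, as if the zones came from different mice, which the labels do not say. Shared mice would leave fewer arrangements and a larger smallest p.

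Rel, the c-Rel subunit prominent in lymphocytes (chr11:23736847-23770970, minus strand), had 21.3, 7.74 and 25.0 CPM in dark zone control libraries, 27.9, 28.5 and 8.81 in dark zone treated, 23.4, 81.0 and 31.1 in light zone control and 11.8, 29.7 and 29.7 CPM in light zone treated libraries. Light zone control 2, at 81.0 CPM, was above all the others, and the rest overlapped across groups. The averaged treatment difference was -0.33 (SE 0.51), and scaling by library totals in place of TMM turned it to 0.10.

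Nfkbia encodes IkB alpha, resynthesised after activation to end the response (chr12:55489410-55492647, minus strand). Its levels were 173, 123 and 123 CPM in the controls of the dark zone, against 246, 293 and 167 CPM in its treated libraries. Light zone control libraries had 136, 207 and 259 CPM, and light zone treated libraries 370, 596 and 329 CPM. In the light zone all 3 treated libraries lay above all 3 controls, including the pair that did not stand apart; in the dark zone, treated library 3 lay within the control range. Group means were 140 ± 28.9, 235 ± 63.3, 200 ± 61.7 and 431 ± 144 CPM (SD, n = 3) in the order given. The treatment difference was 0.75 (SE 0.37) in the dark and 1.11 (SE 0.37) in the light zone, and the difference between these was 0.35 (SE 0.52, edgeR adjusted p = 1), so no difference between zones was resolved.

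Averaged over zones, the treatment difference of Nfkbia was 0.93 (SE 0.26, unadjusted p = 0.00443, edgeR adjusted p = 0.223). DESeq2 gave an adjusted p of 0.0269 and limma-voom with quality weights 0.0305. The exact permutation within zones gave p = 0.01, and 0.151 adjusted over all genes. Without the 3 libraries the difference was 0.55 (edgeR adjusted p = 0.708; DESeq2 adjusted p = 0.396). The DESeq2 call was also lost on leaving out any 1 of 7 libraries: dark zone control 2 or 3, dark zone treated 1 or 2, light zone control 1 or 2, or light zone treated 2, with an adjusted p of at most 0.148. The limma-voom call was lost without any 1 dark zone control, dark zone treated 1 or 2, or light zone control 1 or 2, with an adjusted p of at most 0.552. The macrophage, plasma cell and germinal center marker sums given above moved with the same 3 libraries, and their part in the result was not tested. Without the 3 libraries the difference was 0.82 (SE 0.31, edgeR adjusted p = 0.672) in the light zone. In the dark zone it was 0.28, with dark zone treated 3 the only treated library left. With a term for the 3 libraries in the edgeR fit, the dark zone difference was 0.234 (SE 0.295).

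Nfkbie, which encodes IkB epsilon (chr17:45555703-45563169, plus strand), had 14.1, 0.911 and 8.27 CPM in dark zone control libraries, 17.4, 21.7 and 3.97 in dark zone treated and 21.4, 5.85 and 7.27 CPM in light zone control libraries. In the light zone treated libraries it was blank in library 1, reached 42.0 CPM in library 2 and had 1 count in library 3. A blank was read as 0, and 3 counts, the upper limit that a count of 0 allows, correspond to 0.175 CPM in library 1. The pooled treatment difference was 0.59 (SE 1.37). Without the 3 libraries, its sign turned: DESeq2 gave -4.85 (SE 1.25, adjusted p = 0.00608), where it called 3.29% of 12017 genes, whereas edgeR gave -4.69 (adjusted p = 0.696). That fitted size depends on a group with 0 and 1 counts and is no bound.

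Tnfaip3 encodes A20, a ubiquitin-editing enzyme that shuts off signalling upstream of IkB kinase (chr10:19000910-19015657, minus strand). It had 5.21, 2.78 and 12.3 CPM in dark zone control libraries, 12.5, 7.77 and 0.481 in dark zone treated, 41.1, 10.8 and 7.04 in light zone control and 7.02, 19.8 and 0.206 CPM in light zone treated libraries. The third treated library was the lowest in both zones, and the others overlapped with controls. The averaged difference was -0.54 (SE 0.99), 0.006 with library totals in place of TMM, and -3.10 without the 3 libraries (edgeR adjusted p = 0.708; DESeq2 adjusted p = 0.113).

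Traf3, the adaptor that restrains the noncanonical route by promoting loss of its kinase NIK (chr12:111166370-111267153, plus strand), had 13.0, 1.01 and 2.86 CPM in the controls of the dark zone, against 17.2, 10.3 and 19.3 CPM in its treated libraries. In the light zone it had 5.95, 2.47 and 1.85 CPM in control and 11.1, 27.2 and 0.206 CPM in treated libraries. In each zone 2 treated libraries exceeded all controls. The averaged difference of 1.69 (SE 0.94, edgeR adjusted p = 0.365) was 1.27 without the 3 libraries.

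Tank (chr2:61578585-61654171, plus strand) had 103, 94.3 and 113 CPM in the controls of the dark zone, against 17.2, 27.6 and 36.8 CPM in its treated libraries, so the groups were far apart, and library 3, which is not among those that stood apart, was on the same side. Light zone control libraries had 189, 135 and 154 CPM, and light zone treated libraries 171, 32.3 and 131 CPM, where the low one was library 2. The 3 libraries that stood apart were below all the other 9 (17.2 to 32.3 against 36.8 to 189 CPM). Group means were 103 ± 9.16 and 27.2 ± 9.8 CPM in the dark zone and 160 ± 27.5 and 111 ± 71.4 CPM in the light zone (SD, n = 3, control first).

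The treatment difference of Tank in the dark zone was -1.93 (SE 0.54, unadjusted p = 0.00478, edgeR adjusted p = 0.528), and limma-voom called it (adjusted p = 0.00213), while DESeq2 did not (0.0681). In the light zone it was -0.52 (SE 0.53), and -0.067 without the 3 libraries that stood apart. The difference between zones was 1.41 (SE 0.74, unadjusted p = 0.0863, edgeR adjusted p = 1). Averaged over zones it was -1.22 (SE 0.38, unadjusted p = 0.00803, edgeR adjusted p = 0.231), with adjusted p of 0.0386 by DESeq2 and 0.0271 by limma-voom, and exact permutation p of 0.02, or 0.184 adjusted over all genes. Without the 3 libraries the averaged difference was -0.77 (edgeR adjusted p = 0.693), which DESeq2 called (-0.78, adjusted p = 0.0108) and limma-voom did not (adjusted p = 0.699). In the dark zone without them, 1 treated library remained, assumed to vary like the other groups, and the difference was -1.47 (edgeR adjusted p = 1; DESeq2 adjusted p = 0.00122, where it called 1.81% of genes). On the 12 libraries, the averaged DESeq2 and limma-voom calls were lost on leaving out any 1 control library, or dark zone treated 1 or 2, with adjusted p of at most 0.163 and 0.552. The dark zone limma-voom call was lost without dark zone treated 1 or 2 (adjusted p of 0.811 and 0.844). The marker sums that moved with these libraries are given above, and their part in the result was not tested.

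**Figure D3:**
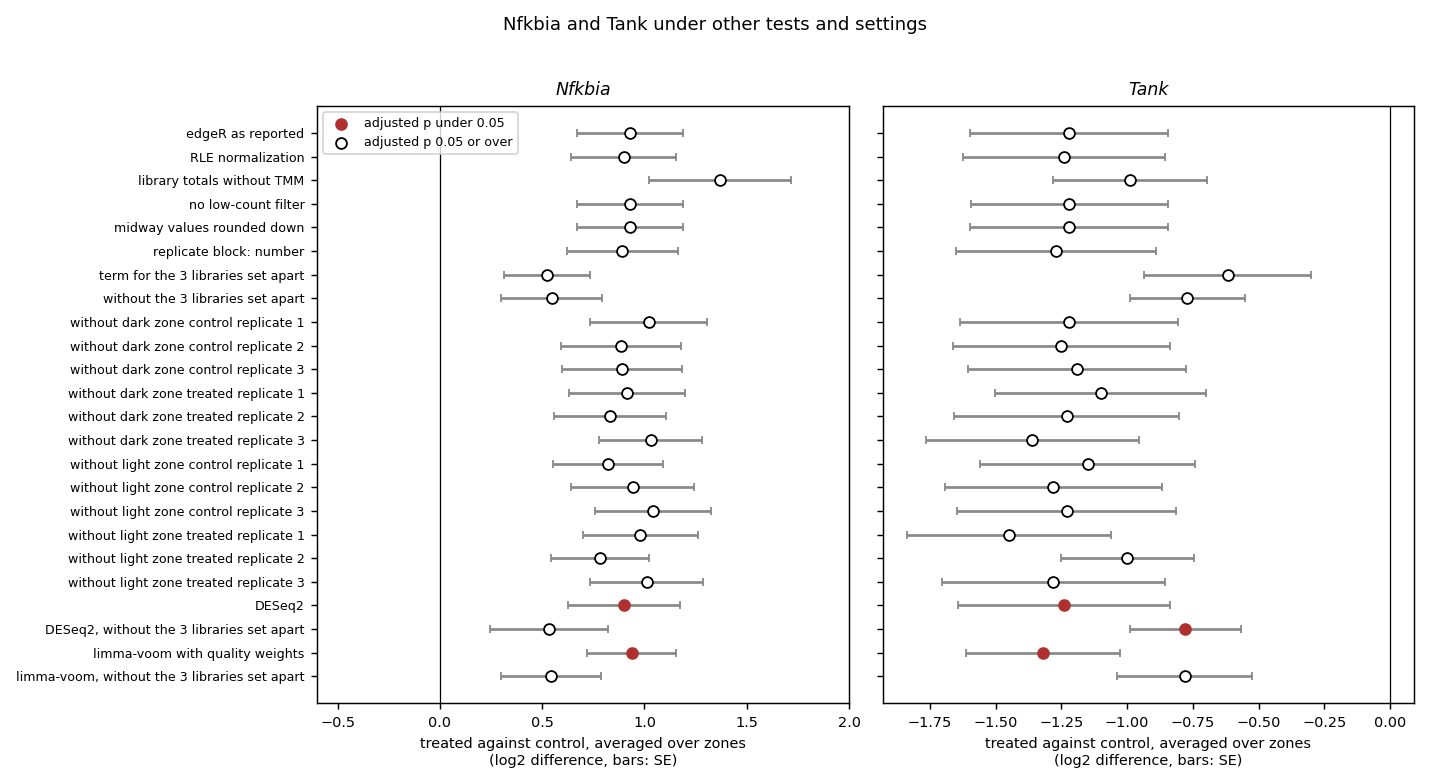
Log2 difference between treated and control libraries averaged over zones, with SE bars, for Nfkbia (left) and Tank (right) under each test and setting named on the vertical axis; filled points have an adjusted p under 0.05. Every point for Nfkbia lay above 0 and every point for Tank below 0, and both values were nearer to 0 without the 3 libraries that stood apart (0.55 and -0.77 with edgeR). With a term for these 3 libraries they were 0.525 and -0.618.

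Counted together against treatment in the dark zone, 9 of the 10 genes were higher and 1 lower, with a median log2 difference of 0.72 against 0.06 over all genes tested. Without the 3 libraries that stood apart, dark zone treated 3 was the only treated library left. Then 4 genes were higher and 6 lower, with a median of -0.36 against -0.11. None passed the edgeR adjusted test, as for all other genes (0%), and 1, Tank, had an unadjusted p under 0.05 (8.9% of all genes). Tank was the only member whose groups did not overlap (11.2% of genes were lower and 12.5% higher without overlap). By DESeq2 no member passed (0.596% of genes), and by limma-voom Nfkbia (adjusted p = 0.0201) and Tank did (25.4% of genes). The limma-voom call of Nfkbia in this zone was lost without dark zone control 2 or 3 or dark zone treated 1 or 2, with an adjusted p of at most 0.855.

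In the light zone 7 were higher and 3 lower in treated libraries, with a median of 0.64 against 0.10 over all genes. Without the 3 libraries, 5 were higher and 5 lower (median 0.043 against -0.038). None passed edgeR's adjusted test (0% of genes), DESeq2 (1.79%) or limma-voom (0%), and Nfkbia alone had an unadjusted p under 0.05 (7.36%). Nfkbia was also the only member without overlap (5.82% of genes were higher and 5.49% lower without overlap). Averaged over zones, 7 were higher and 3 lower, with a median of 0.68 against 0.11, and without the 3 libraries 4 were higher and 6 lower, with a median of -0.49 against -0.11. None passed edgeR (0% of genes), 3 had an unadjusted p under 0.05, namely Nfkb2, Nfkbia and Tank (16.7%), and Nfkbia and Tank passed DESeq2 (6.17%) and limma-voom (8.19%). No member was free of overlap in both zones (1.55% of genes higher, 2.24% lower). For the difference of treatment effects between zones, no member passed edgeR (0%), DESeq2 (0.132%) or limma-voom (0%), and none had an unadjusted p under 0.05 (2.28%). Scaling by library totals moved the averaged treatment median of all genes from 0.11 to 0.49, and on that scale the difference of Nfkbia was 1.37 and that of Tank -0.99. Both treatment comparisons share the libraries with the zone comparisons that follow.

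**Figure D4:**
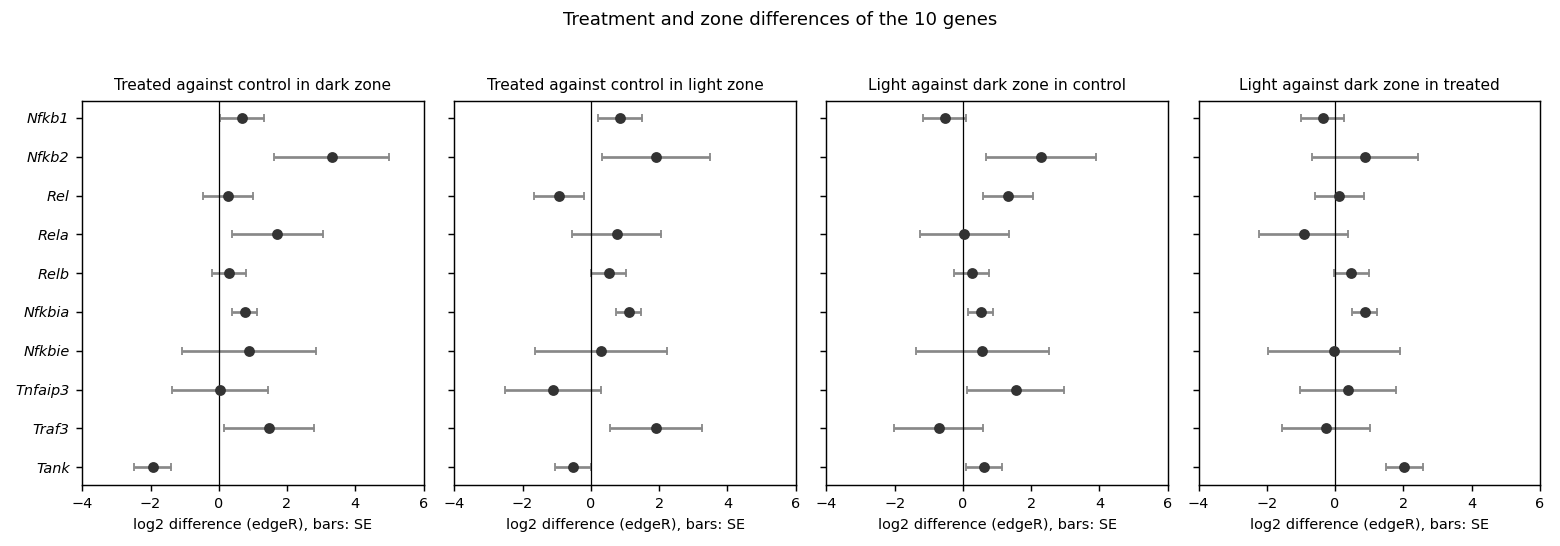
Log2 difference with SE (horizontal axis) of each gene for treatment in the dark and light zone and for zone in control and treated mice, from edgeR (n = 3 libraries per group). Nfkbia was above 0 in all 4 panels (0.52 to 1.11), and Tank was below 0 for treatment in both zones and above 0 for light against dark zone.

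Between zones the same 2 genes differed most relative to their error with edgeR, with higher mean levels in light zone cells. By limma-voom averaged over treatments, Tank also came first (1.48, SE 0.291). There Nfkbie (-3.35, SE 1.21) and Rela (-2, SE 0.788) came before Nfkbia (0.539, SE 0.217), both lower in the light zone. For Nfkbie and Rela edgeR gave 0.268 and -0.437. With edgeR averaged over treatments, Nfkbia was 1.62-fold higher in the light zone (log2 difference 0.70, SE 0.26, unadjusted p = 0.021) and Tank 2.51-fold (1.33, SE 0.38, unadjusted p = 0.00499), and neither passed edgeR's adjusted test (adjusted p = 0.991 for both). The exact permutation within treatments gave p = 0.02 and 0.01, each 0.827 adjusted over all genes. Both differences were as large without the 3 libraries, at 0.81 and 1.35, where dark zone treated 3 was the only dark zone treated library left. With a term for the 3 libraries instead, the edgeR difference of Nfkbia was 0.813 (SE 0.178), and that of Tank was smaller, at 0.953 (SE 0.262). None of the 10 passed edgeR (0% of genes), DESeq2 (0.53%) or limma-voom (0%), and these 2 had an unadjusted p under 0.05 (4.93%); neither was free of overlap in both treatments (0.273% of genes higher and 0.257% lower).

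In control mice 8 genes were higher and 2, Nfkb1 and Traf3, lower in the light zone, with a median of 0.54 against 0.001 over all genes. None passed edgeR (0%), DESeq2 (0.935%) or limma-voom (0%) and none had an unadjusted p under 0.05 (4.93%). Tank, at 0.63 (SE 0.53), was the only one without overlap (4.47% of genes higher and 5.6% lower). Rel at 1.32 (SE 0.73), Tnfaip3 at 1.54 (SE 1.43) and Nfkb2 at 2.29 (SE 1.62) had larger differences with overlapping libraries. Leaving out 1 library brought these as low as 0.594, 0.397 and 1.58. The other members named above as textbook targets had smaller ones: Nfkbia 0.522 (SE 0.365), Nfkbie 0.567 (SE 1.94) and Relb 0.251 (SE 0.506). In treated mice 6 were higher and 4 lower, with a median of 0.25 against 0.05. None passed edgeR (0%), DESeq2 (0.00828%) or limma-voom (0%), while Nfkbia (0.88, SE 0.37) and Tank (2.03, SE 0.54) had an unadjusted p under 0.05 (2.06%). Nfkbia was without overlap (2.24% of genes higher and 3.55% lower), whereas Tank overlapped through its light zone treated library 2. With a term for the 3 libraries that stood apart, the edgeR difference in treated mice was 1.1 (SE 0.259) for Nfkbia and 1.28 (SE 0.4) for Tank.

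Among themselves the members did not vary as 1 block. Over the 12 libraries the closest pair on the log2 CPM scale was Rela with Nfkbie (Pearson r = 0.81, and 0.75 over the 9 libraries other than the 3), followed by Relb with Nfkbia (0.78, and 0.67 over 9) and Nfkb2 with Nfkbia (0.71, and 0.50 over 9). Rela and Tank ran in opposite directions (-0.70, and -0.28 over 9), and so did Nfkb1 and Nfkb2 over the 9 libraries (-0.75) but not over 12 (0.08). These values describe libraries that share treatment, zone and composition, and they carry no test. Outside the set, 7259 genes of at least 10 CPM on average were ranked by likeness over the 12 libraries. Each gene named below is the highest of these 7259, and picking the highest from so many gives a high r by itself. No test was made of these likenesses. The 9 libraries are part of the 12, so a gene named for both was not found independently. The gene most like Nfkbia was H2-Ab1, an MHC class II chain (r = 0.91), that most like Rela was Acot7 (0.97), and that most like Tank was Timm10 (0.98). Over the 9 libraries these places went to Tmed10 for Nfkbia (0.97), Cryz for Rela (0.97) and Eif2s3x for Tank (0.95). Nfkb1 was most like Syk, the kinase of the B cell receptor, both over 12 libraries (0.94) and over 9 (0.95). Nfkbie was most like Traf6 (0.94, and 0.97 over 9) and Rel most like Atg2b (0.93 in both). For the other members the nearest gene was Sorl1 for Nfkb2, Tgfb3 for Relb, Inpp1 for Tnfaip3 and Ap3b1 for Traf3, at 0.84 to 0.94 over 12, and another gene took that place over 9.

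The rest of the pathway was read in 5 lists of receptors, adaptors, kinases, inhibitors and targets, 95 genes in all. No gene of any list passed the edgeR adjusted test in any of the 7 comparisons. List values come from all 12 libraries, and none is given without the 3 that stood apart. For the 10 members, the median averaged treatment difference went from 0.68 to -0.49 without those 3. List counts for averaged treatment are to be read against 16.7% of all genes with an unadjusted p under 0.05, 6.17% called by DESeq2 and 8.19% by limma-voom. Among the activating receptors, 9 of 12 tested were higher in treated libraries averaged over zones (median 1.32 against 0.11 over all genes), 4 of them with an unadjusted p under 0.05, and DESeq2 called 1, Tlr9, the endosomal receptor for DNA (3.72, SE 1.03, DESeq2 adjusted p = 0.00583), which limma-voom did not call (adjusted p = 0.197). Cd40, the receptor whose ligand was blocked, had 36.1 to 71.8 CPM in dark zone control, 38.3 to 59.4 in dark zone treated, 59.9 to 105 in light zone control and 100 to 116 CPM in light zone treated libraries. Its averaged treatment difference was 0.09 (SE 0.26), and its zone difference 0.83 (SE 0.26, edgeR adjusted p = 0.991). Cd180 (-0.36, SE 0.54) and Tlr4 (1.69, SE 1.16) did not pass for treatment.

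Among the adaptors and ubiquitin enzymes, 13 of 19 were higher in treated libraries averaged over zones (median 1.21), and 7 higher and 1 lower had an unadjusted p under 0.05. Those that DESeq2 called higher included Traf2, Traf5, Tradd and Irak1, and it called 1 lower, Birc2, an E3 ligase that acts with TRAF3 in the noncanonical route (-1.31, SE 0.36, DESeq2 adjusted p = 0.00373). In all, DESeq2 called 5 higher and 1 lower, and limma-voom 4 higher and 2 lower, Birc2 and Ube2n. Traf5, a CD40-binding adaptor, had 12.7 to 43.2 CPM in dark zone control against 51.7 to 127 in treated libraries, and 3.67 to 17 against 54.4 to 73.6 CPM in the light zone. It was higher without overlap in both zones, as was Irak1 (1.55% of all genes), and Birc2 was lower (2.24%). The averaged difference of Traf5 was 2.07 (SE 0.47, edgeR adjusted p = 0.222, DESeq2 adjusted p = 0.00103). Tradd, the adaptor of the TNF receptor, was higher by 4.06 (SE 1.13, edgeR adjusted p = 0.223, DESeq2 adjusted p = 0.00121). Its dark zone treated libraries (2.16 to 52 CPM) overlapped the controls (0.274 to 12.3 CPM). In the light zone they did not (7.43 to 50.3 against 0.172 to 1.7 CPM). Ripk1 was higher by 1.23 (SE 0.99) without passing.

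Of the 11 kinases, 8 were higher in treated libraries on average (median 0.44), 1 had an unadjusted p under 0.05, and neither DESeq2 nor limma-voom called any. Ikbkg, the scaffold subunit of IkB kinase, differed by 0.69 (SE 0.66), Map3k7, the upstream kinase TAK1, by 0.44 (SE 0.71), and Map3k8 by -1.09 (SE 0.88). Of 17 other inhibitors and brakes, 10 were higher (median 0.37), 3 higher and 2 lower had an unadjusted p under 0.05, and DESeq2 called Tax1bp1, a partner of A20, higher (1.16, SE 0.34, DESeq2 adjusted p = 0.0374) and Itch, an E3 ligase that works with A20, lower (-1.14, SE 0.35, DESeq2 adjusted p = 0.0239). Of these limma-voom called Tax1bp1 (adjusted p = 0.0327) and not Itch (0.0894). Nfkbib, the third classical IkB, differed by 1.37 (SE 0.69, edgeR adjusted p = 0.337), N4bp1 by 1.32 (SE 1.11) and Rnf11 by -0.029 (SE 0.57).

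Of 32 transcribed targets tested, 16 were higher and 16 lower in treated libraries averaged over zones (median -0.039 against 0.11 over all genes), 4 higher and 1 lower had an unadjusted p under 0.05, and DESeq2 called 1, Tap1 (2.29, SE 0.67, DESeq2 adjusted p = 0.013). By limma-voom Tap1 was not called (adjusted p = 0.0537), whereas Bcl2a1b (-0.82, adjusted p = 0.0488) and B2m (-0.98, adjusted p = 0.0382) were called lower. Between zones, 24 of 32 were higher in the light zone (median 0.58 against 0.06), 9 higher and 1 lower had an unadjusted p under 0.05, and DESeq2 called 5, Cd83, Cd86, Bcl2a1b, Ccnd2 and Id2. Over all genes these shares were 4.93% and 0.53%, and limma-voom called none of the 5 (adjusted p of 0.0691 to 0.213) and no gene at all (0%). Cd86, a costimulatory ligand that CTLA4-Ig binds, had 11.1 to 105 CPM in dark zone and 108 to 240 CPM in light zone libraries (1.98, SE 0.45, edgeR adjusted p = 0.991, DESeq2 adjusted p = 0.00913). Ccnd2, the cyclin D2 gene, differed between zones by 2.59 (SE 0.79, DESeq2 adjusted p = 0.0487), and Irf4 by 2.73 (SE 1.47) without passing. Cd83 was a marker of the light zone sort, so its place among the 5 was tied to the sorting. Cd86 also marks light zone cells, so its zone difference is not independent of how such cells are recognised.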

How the data were processed

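Expected counts per gene symbol, 1 file per library, were deposited by the authors; per the submitters' processing notes BWA and build mm10 were used, with no counting program named. Of all values, 11286 lay midway between whole numbers, and blanks (5983) were read as 0. Values were rounded to whole numbers, midway values up, before testing. Genes were filtered with edgeR's filterByExpr (count minimum 10, total minimum 15), which left 12081 of 12212 symbols, scaled by TMM and tested with edgeR 4.0.16 (robust quasi-likelihood, 1 mean per group, all 12 libraries, Benjamini-Hochberg adjustment over all genes, threshold 0.05) in R 4.3.3. DESeq2 1.42.0, limma 3.58.1 (voom with quality weights), an exact stratified permutation, RLE scaling, no filter, rounding down, only the groups compared, leaving out libraries, a term for the 3 libraries and a replicate block were alternatives. Scaling by library totals, and DESeq2 or limma-voom without libraries, were added after seeing the data. The scripts were tested on simulated data. Members and gene lists were chosen with earlier results of these data known. All 10 members are named, plus the 3 genes per list with the largest zone difference among those of at least 10 CPM, the gene most like each member, and the marker genes and those that DESeq2 or limma-voom called in the averaged comparisons, which were chosen after their values were seen. One such result is not reported here. Levels per length used GENCODE M21 exons on mm10; start-site sequences are RefSeq's (GRCm38.p6).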

Additional observations from a re-analysis of the deposited data

How the results depend on the processing

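Of 1686 values recomputed for 70 gene-by-comparison differences, 1523 kept their direction and side of the threshold, and none of the 1410 edgeR alternatives called a member, although 86 changed sign. A change of sign is listed where the reported difference exceeded its SE or the alternative was called. The number of genes past the threshold was 0 in all 7 comparisons with edgeR, also on leaving out any 1 library (range 0 to 0). DESeq2 called 16 genes for the difference of treatment effects, 64 for zone averaged, 113 for zone in control, 1 for zone in treated, 745 for treatment averaged, 72 for treatment in the dark zone and 216 in the light zone; limma-voom called 990 for treatment averaged and 3073 in the dark zone; a term for the 3 libraries gave 2 for zone averaged. Unadjusted p under 0.05 was reached by 2015 genes for treatment averaged.

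Sign changes with those 3 libraries left out, in the order edgeR, DESeq2 and limma-voom, were for treatment averaged Nfkb2 -0.20, -0.20 and -0.36 and Rela -1.05, -1.06 and -0.86. For the dark zone, where dark zone treated 3 was then the only treated library, they were Nfkb1 -0.17, -0.21 and -0.067 and Nfkb2 -0.56, -0.57 and -0.16. Nfkbie for treatment averaged was -4.85 with DESeq2. With a term for the 3 libraries, treatment averaged gave Nfkb2 -0.065 and Rela -1.12, the dark zone gave Nfkb1 -0.037, Nfkb2 -0.064 and Rela -0.42, and the light zone gave Nfkb2 -0.066. Rela for treatment averaged ranged from -0.41 (without light zone treated 2) to 1.83 on leaving out 1 library. With limma-voom, Nfkb2 for zone averaged was -0.073 and Traf3 for treatment in the light zone -0.16. The cause was not tested beyond these fits.

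With the replicate number as a replicate block, edgeR called 0 genes, and treatment averaged gave Nfkbia 0.89 and Tank -1.27 (edgeR adjusted p = 0.319 for both). The block moved no count of calls. Of 6 same-numbered pairs, 3 correlated over 0.1 and 2 matched best with their own number, so the numbers were not taken as pairing. Among treated pairs, both libraries of number 2 stood apart (correlation 0.539). Of number 1 only the dark zone library did (-0.307). For treated libraries the check therefore cannot separate pairing from standing apart, and it decides nothing there. Nor does the check show that the zones came from different mice. Nfkbia and Tank had at least 535 counts in every library. For Nfkbie, Tnfaip3 and Traf3 some libraries held 4 or fewer counts.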
